A study of Mus musculus with 12 samples.

Results

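Messenger RNA levels of 9 genes for matrix proteases and plasminogen activation were described in mouse basal cell carcinoma keratinocytes after loss of YAP1 and TAZ or after inhibition of the TEAD transcription factors. The genes were Mmp3, Mmp10, Mmp13, Mmp9, Mmp14, Adamts15, Plau, Plaur and Timp1. They were found by symbol among 17090 genes of the deposited expression table, and all 9 passed the filter on low values. The set had been chosen from measured values, the normalised expression in CPM, reads per 1 M, in all 4 groups of libraries, so the members' own differences are given here as a description with no test.

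The cells were primary keratinocytes from tail skin of K14-SmoM2 mice, taken 5 weeks after tamoxifen. In these mice an active mutant of the Hedgehog signal transducer Smoothened is placed in keratin 14 expressing epidermis, so the model covers that compartment only. All 4 groups were grown in EpiLife medium with 60 µM calcium, 10 ng/ml EGF and 10 µM Y-27632, an inhibitor of ROCK kinases, and all were harvested after 48 h of treatment. The siControl group received a non-targeting pool of small interfering RNA, and the siYAP1+TAZ group received pools against both coactivators, each at 8 pmol per cm2 with Lipofectamine RNAiMAX. The Ad-GFP and Ad-TEADi groups received adenovirus of type 5 with a CMV promoter, at a multiplicity of infection (MOI) of 25, carrying green fluorescent protein or the TEAD inhibitor TEADi. Each group held 3 libraries, lettered A, B and C. Whether the libraries of a group are separate cultures or animals is not stated, and p-values therefore cover the spread among these libraries alone, which may be technical.

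Matrix metalloproteinases (MMPs) are zinc proteases that are made as inactive precursors and cut collagens, other matrix proteins and cell surface proteins once activated. Urokinase, bound to its receptor on the cell surface, turns plasminogen into plasmin, which cuts fibrin and can activate several MMP precursors. Tissue inhibitors of metalloproteinases (TIMPs) block the MMPs, and certain serpins block plasminogen activators. In skin these proteins are known from wound edges, where keratinocytes detach and migrate, and from the invasive fronts of carcinomas. YAP1 and TAZ act on genes mainly through TEAD factors, and AP-1 factors, which bind the letters TGACTCA, often act at the same sites.

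The steps between low values put the depth of the libraries at 20.04 to 29.14 M reads. This depth is inferred, and only 82.8% to 85.2% of low values fitted a whole number of reads, so read numbers below are approximate. The targeted genes followed their labels: with siControl Yap1 stood at 186.8 to 205.9 CPM and with its own siRNA at 62.5 to 71.8 CPM, and Wwtr1, which encodes TAZ, at 52.9 to 56.5 and 26.1 to 30.02 CPM. All 8 keratinocyte markers reached 10 CPM. Krt10, a keratin of differentiating layers, was at 37.8 to 46.7 CPM with siControl and 631 to 770 CPM after knockdown, and at 41.8 to 59.9 CPM with Ad-GFP and 391 to 397 CPM with TEADi. Epcam, an adhesion gene of epithelial cells, was at 202 to 212 and 117 to 127 CPM, and at 208 to 222 and 98.3 to 108 CPM, in the same order. Both thus moved with the treatments described below. The other keratinocyte markers moved as well, in both directions and without overlap. Trp63 and Krt14 were higher, and Krt5 and Col17a1 lower, in each treated group than in its control. Cdh1 was higher with knockdown and lower with TEADi, and Itga6 was lower with knockdown and higher with TEADi. The part of differentiation state was not tested. None of the 7 fibroblast markers in the table reached 10 CPM, and none of the 5 neutrophil markers was in the table. Summed macrophage and dendritic markers were at 14.8 to 15.7 CPM in the siControl libraries and 14.3 to 16.99 CPM in the Ad-GFP libraries, against 43.8 to 45.0 CPM after knockdown and 34.2 to 36.5 CPM with TEADi. Of the 6 such markers in the table only the lysosomal gene Cd68 reached 10 CPM, while the macrophage receptor gene Csf1r was at 1.46 CPM or less in every library and Adgre1 and Cd207 were not in the table. The part of such cells in the results below was not tested.

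The members lie at 7 places in the genome, given here on mm10. Mmp13 (chromosome 9, 7272514 to 7283331), Mmp3 (chromosome 9, 7445822 to 7455975) and Mmp10 (chromosome 9, 7502352 to 7510240) belong to 1 cluster of MMP genes, within 237.7 kb. Yap1 itself, on the minus strand, has its near end 421.8 kb beyond the end of Mmp10. Adamts15 (30899155 to 30922452) lies elsewhere on chromosome 9. Mmp9 is on chromosome 2 (164940780 to 164955850), Mmp14 on chromosome 14 (54431612 to 54445364), Plau on chromosome 14 (20836660 to 20843385), Plaur on chromosome 7 (24462484 to 24475968) and Timp1 on chromosome X (20870166 to 20874735). How reads shared by gene copies were counted is not stated in the labels. Of all stretches of 50 bases in their transcripts, Mmp3 shared 8.39% with other genes and Mmp10 8.37%, mostly with each other, so a small part of their reads could be misplaced.

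RefSeq promoters (build GRCm38.p6) were at hand for 6 of the 9 members, and the 100 bases before each start are printed because the members of the chromosome 9 cluster share a motif there. All 6 are on the plus strand, and capitals mark the AP-1 letters TGACTCA or, on the other strand, TGAGTCA. The windows are chr9:7445722-7445821 for Mmp3, chr9:7502242-7502341 for Mmp10, chr9:7272414-7272513 for Mmp13, chr7:24462383-24462482 for Plaur, chr14:54431498-54431597 for Mmp14 and chrX:20870066-20870165 for Timp1.
Mmp3: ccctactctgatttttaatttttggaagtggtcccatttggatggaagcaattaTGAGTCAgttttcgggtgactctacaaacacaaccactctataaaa
Mmp10: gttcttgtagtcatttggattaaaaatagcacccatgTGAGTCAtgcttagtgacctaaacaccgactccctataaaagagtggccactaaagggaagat
Mmp13: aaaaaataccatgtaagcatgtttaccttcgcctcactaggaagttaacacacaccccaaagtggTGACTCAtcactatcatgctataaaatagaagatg
Plaur: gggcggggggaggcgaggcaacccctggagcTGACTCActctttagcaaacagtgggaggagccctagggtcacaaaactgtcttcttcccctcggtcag
Mmp14: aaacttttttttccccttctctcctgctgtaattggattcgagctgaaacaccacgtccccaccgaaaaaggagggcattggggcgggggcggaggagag
Timp1: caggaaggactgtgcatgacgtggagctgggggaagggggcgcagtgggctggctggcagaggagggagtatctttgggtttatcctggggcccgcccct

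The search covered 300 bases of each promoter, from 250 before to 50 after the start, on both strands. The AP-1 letters stood in 4 of the 6 members, 46 bases before the start in Mmp3, 63 in Mmp10, 35 in Mmp13 and 69 in Plaur, counted from the first base of the match. They stood in 1709 of all 32851 promoters of the table (5.2%). The TEAD letters GGAATG, or CATTCC on the other strand, were found in 1 of the 6, Timp1, 247 bases before its start, against 14.7% of all promoters. Of the 4 other genes of the cluster that passed the filter, Mmp1b and Mmp1a also had the AP-1 letters, 93 and 73 bases before the start, and Mmp27 did not. Mmp12 has 2 promoters in the table, and the letters stood in the second, 44 bases before its start, and not in the first. A match is a description of the letters in this window, not of binding.

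The secreted stromelysins and collagenase of the chromosome 9 cluster were higher in both treated groups. Mmp3, stromelysin 1, cuts proteoglycans and laminins and activates other MMP precursors. Its level was 52.9, 44.2 and 52.5 CPM in the siControl libraries and 97.4, 81.0 and 86.9 CPM in the siYAP1+TAZ libraries (means 49.9 ± 4.88 and 88.4 ± 8.28, SD, n = 3). In the adenoviral groups it was 12.1, 10.1 and 10.97 CPM with Ad-GFP and 50.2, 42.1 and 48.4 CPM with Ad-TEADi (11.1 ± 0.987 and 46.9 ± 4.22). The treated libraries lay above their own controls without overlap in both pairs, and the Ad-TEADi libraries overlapped those of siControl. On the log2(CPM + 1) scale the change was 0.81 (SE 0.0803) with knockdown and 1.99 (SE 0.0803) with TEADi.

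Mmp10, stromelysin 2, a close copy of Mmp3 that is made by migrating keratinocytes at wound edges, stood out mainly under the inhibitor. With siControl it was at 44.5, 41.9 and 44.1 CPM and with siYAP1+TAZ at 45.8, 49.8 and 48.6 CPM (43.5 ± 1.44 and 48.0 ± 2.06). With Ad-GFP it was at 25.0, 23.0 and 25.5 CPM and with Ad-TEADi at 93.6, 90.0 and 98.6 CPM (24.5 ± 1.33 and 94.0 ± 4.32), a ratio of means of 3.84. The knockdown libraries began just above the siControl range, with a log2 change of 0.14 (SE 0.051) that turned to -0.05 when each library was divided by its own column total. With quantile normalization the knockdown and siControl libraries of Mmp10 overlapped. The Ad-TEADi libraries were the highest of all 4 groups, with a log2 change of 1.90 (SE 0.051) from Ad-GFP.

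Mmp13, the main interstitial collagenase of the mouse, was the most abundant of the 3. It was at 218, 180.2 and 200.03 CPM in siControl and at 331, 311 and 322 CPM in siYAP1+TAZ (199 ± 18.9 and 321 ± 10.3). The Ad-GFP libraries held 150.0, 144 and 146 CPM and the Ad-TEADi libraries 196, 194 and 216 CPM (146 ± 3.21 and 202.0 ± 12.5). Both treated groups stood above their own control, by 0.69 (SE 0.0557) with knockdown and 0.46 (SE 0.0557) with TEADi on the log2 scale, and the Ad-TEADi and siControl libraries overlapped.

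The remaining proteases were lower after knockdown, and Mmp9 differed from the others under TEADi. Mmp9, gelatinase B, cuts denatured collagen and basement membrane collagen. Its siControl libraries were at 226, 190.0 and 207 CPM and its siYAP1+TAZ libraries at 98.5, 105 and 111 CPM (208 ± 18.1 and 105 ± 6.07). With Ad-GFP it was at 242, 273 and 250.2 CPM and with Ad-TEADi at 221, 245 and 246 CPM (255 ± 16.04 and 237 ± 13.8). The knockdown libraries were the lowest of the 12, 1.98-fold below siControl by the means (log2 change -0.98, SE 0.0607). The Ad-TEADi libraries overlapped Ad-GFP (-0.10, SE 0.0607), and they no longer did, lying lower, without Ad-GFP library A, with column totals and with quantile normalization (-0.24).

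Mmp14, or MT1-MMP, is held in the membrane, cuts collagen at the cell surface and activates the Mmp2 precursor. It was at 175, 187 and 182 CPM in siControl and at 78.9, 76.6 and 79.2 CPM in siYAP1+TAZ (181 ± 6.14 and 78.2 ± 1.42). The adenoviral groups had 212, 234 and 221 CPM with Ad-GFP and 101, 101 and 96.2 CPM with Ad-TEADi (222 ± 11.1 and 99.6 ± 2.99). Both treated groups lay far below their control, with log2 changes of -1.20 (SE 0.042) and -1.15 (SE 0.042), and all 4 groups were separate from each other.

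Adamts15, a secreted protease that cuts the proteoglycans versican and aggrecan, showed the widest distance between treated and control libraries among the 9 members. The siControl libraries were at 36.8, 37.96 and 35.9 CPM and the siYAP1+TAZ libraries at 2.31, 4.37 and 3.01 CPM (36.9 ± 1.05 and 3.23 ± 1.05). Ad-GFP gave 37.6, 40.1 and 36.9 CPM and Ad-TEADi 2.72, 3.60 and 4.57 CPM (38.2 ± 1.69 and 3.63 ± 0.926). Both controls overlapped and both treated groups overlapped, so the 12 libraries formed a high and a low level. The ratio of means was 11.4-fold lower with knockdown and 10.5-fold lower with TEADi, and the log2(CPM + 1) changes were -3.19 and -3.10 (SE 0.136 each). With as few as 66 inferred reads in a library, counting alone would give a coefficient of variation of about 12.3% at its lowest level.

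The urokinase gene Plau was the highest of the 9 per length of transcript in 3 of the 4 groups. It was at 498, 490.1 and 471 CPM in siControl and at 269, 274 and 277 CPM in siYAP1+TAZ (486 ± 13.7 and 274 ± 4.02). With Ad-GFP it stood at 346, 361 and 358 CPM and with Ad-TEADi at 257, 264 and 273 CPM (355 ± 7.82 and 265 ± 7.85). The treated groups overlapped each other at the bottom, and siControl lay above Ad-GFP. The log2 change was -0.83 (SE 0.037) with knockdown and -0.42 (SE 0.037) with TEADi.

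Plaur, the membrane-anchored urokinase receptor, was lower in both treated groups by similar amounts. Its siControl libraries held 31.4, 30.6 and 33.9 CPM and its siYAP1+TAZ libraries 13.8, 14.6 and 16.2 CPM (31.9 ± 1.72 and 14.9 ± 1.22). Its Ad-GFP libraries held 25.0, 27.3 and 26.9 CPM and its Ad-TEADi libraries 12.8, 12.3 and 9.87 CPM (26.4 ± 1.23 and 11.7 ± 1.57). All 4 groups were separate, in the order siControl, Ad-GFP, siYAP1+TAZ and Ad-TEADi. Knockdown gave a log2 change of -1.06 and TEADi one of -1.12 (SE 0.0801 each), so both ligand and receptor of the urokinase system were lower.

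The inhibitor gene Timp1, whose product blocks most secreted MMPs, was at a low level throughout. It was at 7.12, 7.11 and 6.18 CPM in siControl and at 4.93, 4.63 and 5.02 CPM in siYAP1+TAZ (6.80 ± 0.537 and 4.86 ± 0.206). Ad-GFP gave 7.55, 6.78 and 6.66 CPM and Ad-TEADi 4.94, 5.20 and 4.74 CPM (6.997 ± 0.480 and 4.96 ± 0.229). As with Adamts15, the controls overlapped each other and the treated groups overlapped each other. The log2 changes were -0.41 and -0.42 (SE 0.0809 each), from as few as 112 inferred reads in a library.

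**Figure D1:**
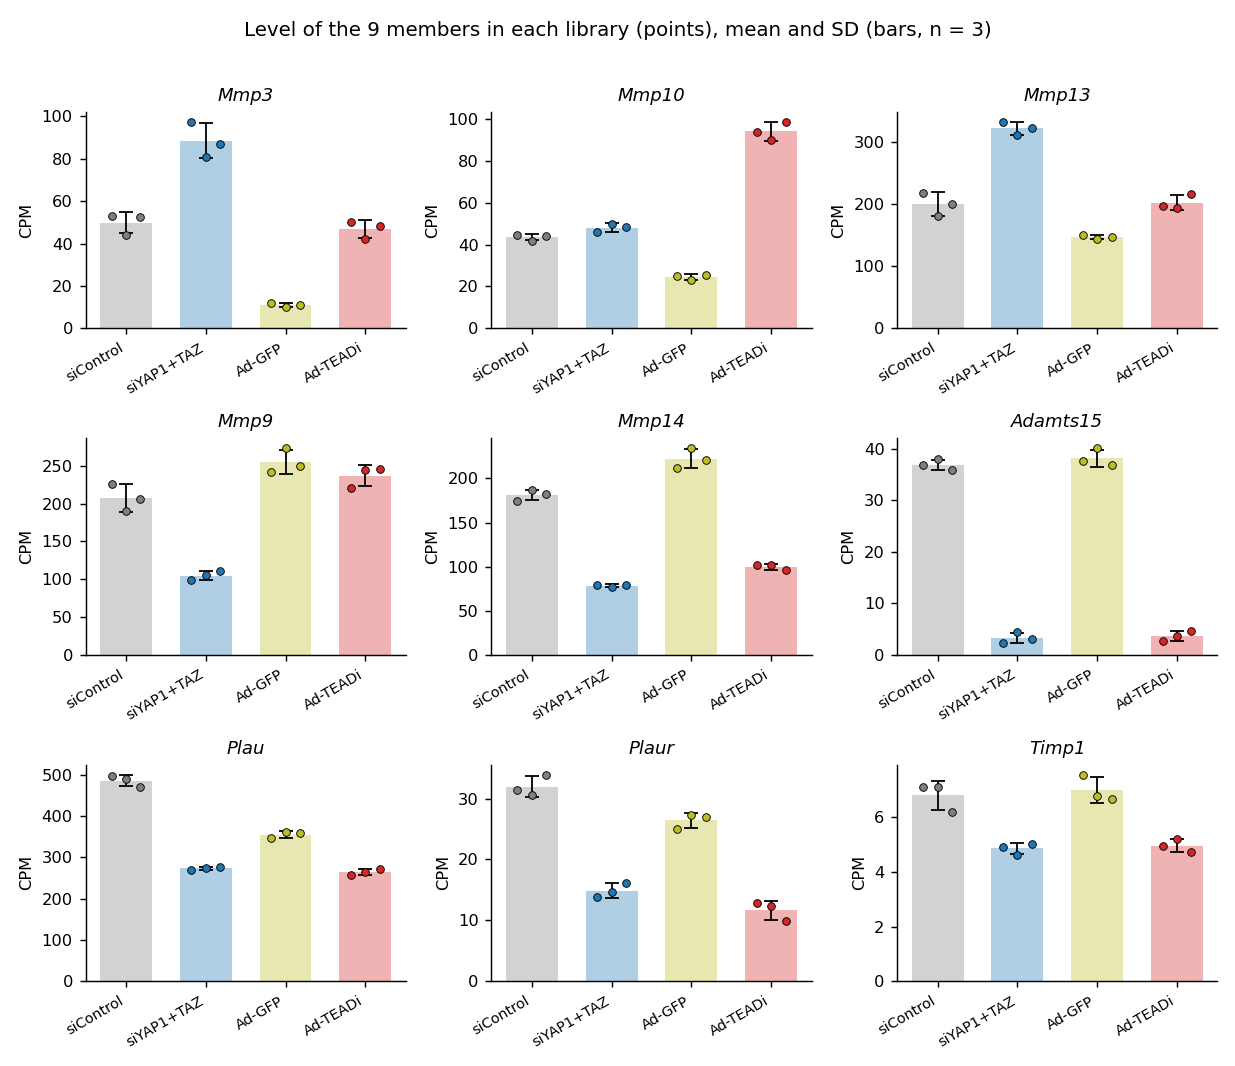
Level of each member in CPM (vertical axes, from 0) in the 4 groups: points are the 3 libraries of a group, bars their mean and error bars the SD. Mmp3, Mmp10 and Mmp13 stand higher in each treated group than in its control, though for Mmp10 with knockdown only by 48.0 against 43.5 CPM, a direction that turned with column totals (-0.05 on the log2 scale); Mmp14, Adamts15, Plau, Plaur and Timp1 stand lower in both, and Mmp9 is lower in siYAP1+TAZ, while its Ad-TEADi libraries overlap Ad-GFP on this scale but not with column totals or quantile normalization.

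Counted over all members, 3 were higher and 6 lower without overlap after knockdown. The same held for 34.4% (higher) and 37.8% (lower) of all 12966 genes tested. With TEADi 3 were higher, 5 lower and 1 overlapped, where 35.5% of all genes were higher and 28.5% lower without overlap. The median log2 change of the members was -0.83 with knockdown and -0.42 with TEADi, beside -0.03 and 0.03 over all genes. Nothing is read from these counts, since the same values chose the members. In bulk RNA, fewer cells of a kind and less RNA per cell cannot be told apart. Dividing each library by its own column total, in place of the authors' scaling, moved the all-gene median by -0.17 with knockdown and by less than 0.1 in the other comparisons.

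Per kilobase of exonic length, the order of the members changed with treatment. In siControl Plau led with 205.4 ± 5.79 CPM per kb, followed by Mmp13 with 74.6 ± 7.08 and Mmp9 with 58.7 ± 5.11. In siYAP1+TAZ Mmp13 (120.2 ± 3.85 CPM per kb) and Plau (116 ± 1.70) overlapped at the top, and Mmp3 came next with 49.1 ± 4.596. In Ad-GFP Plau stood first with 150.1 ± 3.30 CPM per kb, and Mmp3 was next to last with 6.15 ± 0.548. In Ad-TEADi Mmp10 reached 54.6 ± 2.51 CPM per kb, below Plau, Mmp13 and Mmp9. Adamts15 was lowest in all 4 groups, at 0.312 to 3.68 CPM per kb.

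Knockdown and inhibitor effects were set side by side by subtracting the log2 change with TEADi from that with knockdown. For 4 members the ranges of the libraries gave a lower value with knockdown without overlap, a pattern that 22.2% of all genes showed and 22.1% in the other direction. They were Mmp10 (-1.76, SE 0.0721), Mmp3 (-1.17, SE 0.114), Mmp9 (-0.87, SE 0.0858) and Plau (-0.40, SE 0.0523). For Mmp3 and Mmp10 this means a larger distance above control with TEADi, and for Mmp9 and Plau a larger distance below control with knockdown. For Adamts15 (-0.09, SE 0.192), Mmp14 (-0.05, SE 0.0594), Plaur (0.07, SE 0.113), Timp1 (0.01, SE 0.114) and Mmp13 (0.23, SE 0.0787) the ranges overlapped. Leaving out siControl library A or Ad-TEADi library C raised the number without overlap from 4 to 5.

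The controls themselves were not at 1 level, and this bears on those differences, since each effect is measured from its own control. In Ad-GFP against siControl, Mmp3 was 4.51-fold lower by the means (log2 change -2.08, SE 0.0803). Mmp10 (-0.80, SE 0.051), Plau (-0.45, SE 0.037), Mmp13 (-0.44, SE 0.0557) and Plaur (-0.27, SE 0.0801) were also lower without overlap. Mmp9 (0.30, SE 0.0607) and Mmp14 (0.29, SE 0.042) were higher, and Adamts15 and Timp1 overlapped. Over all genes 26.2% were lower and 23.5% higher without overlap. This comparison shares the siControl libraries with the knockdown comparison and the Ad-GFP libraries with the TEADi comparison. Virus, lipid carrier, cargo and any difference between the experiments cannot be told apart here.

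**Figure D2:**
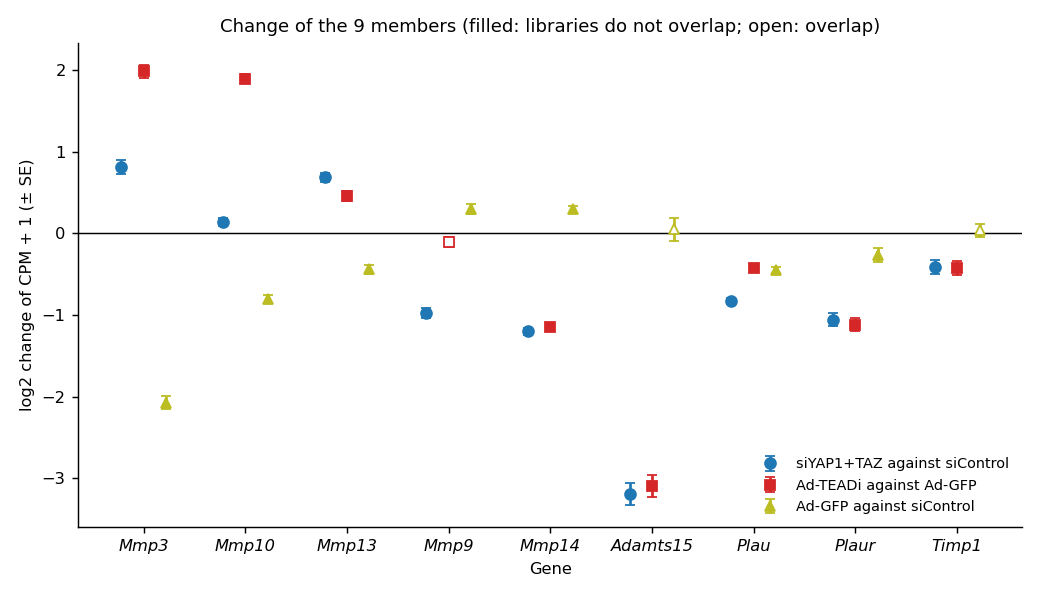
Change of each member (horizontal axis) on the log2(CPM + 1) scale with its SE (vertical axis) in 3 comparisons; filled symbols mark groups whose libraries do not overlap and open symbols those that do. Adamts15 lies at -3.19 with knockdown and -3.10 with TEADi, while Mmp3 and Mmp10 lie higher with TEADi (1.99 and 1.90) than with knockdown (0.81 and 0.14) and below 0 in Ad-GFP against siControl; the Mmp10 knockdown value turned to -0.05 with column totals.

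The chromosome 9 cluster was then followed gene by gene, a view chosen after the values were seen. In order, its genes are Mmp13, Mmp12, Mmp1b, Mmp3, Mmp1a, Mmp10, Mmp8 and Mmp27, then Mmp20 and Mmp7, which are not in the table. Mmp8 was at 0.389 CPM or less in all libraries and was set aside. All 4 tested genes that are not members rose in both comparisons (limma, Benjamini-Hochberg adjusted over all genes). Over all genes 32.7% rose with knockdown and 33.5% with TEADi. With column totals Mmp1b did not pass with knockdown (adjusted p = 0.0698, limma). Mmp12, the macrophage elastase, rose from 2.46 ± 0.327 to 12.9 ± 0.802 CPM with knockdown (log2 change 2.01, SE 0.0992, adjusted p = 5.15e-13) and from 1.39 ± 0.204 to 7.59 ± 0.828 CPM with TEADi (1.85, SE 0.0992, adjusted p = 4.05e-12). It rose alongside the Cd68 level, which was 9.40 to 10.4 CPM in siControl and 37.6 to 38.9 CPM in siYAP1+TAZ, and 9.24 to 11.1 and 27.8 to 30.8 CPM in Ad-GFP and Ad-TEADi, and the part of Cd68 expressing cells was not tested. The other markers of that list were low and did not move as one. With knockdown Csf1r went from 1.02 to 1.16 CPM down to 0.2204 to 0.425 CPM, Itgam from 1.09 to 1.32 CPM up to 2.01 to 2.10 CPM, and Cd14 from 2.29 to 2.66 CPM up to 3.28 to 3.36 CPM. With TEADi Csf1r went from 1.14 to 1.46 CPM down to 0.156 to 0.424 CPM. Itgam went from 0.909 to 1.34 CPM up to 2.33 to 3.07 CPM, while the Cd14 ranges overlapped. Ptprc and Itgax, at 0.508 CPM or less in every library, overlapped their controls with knockdown. With TEADi Ptprc went from 0.0758 to 0.203 CPM up to 0.272 to 0.508 CPM. Itgax went from 0.211 to 0.366 CPM up to 0.381 to 0.410 CPM. In the adenoviral libraries 1 read was worth 0.0302 to 0.0424 CPM by the inferred depth, so both genes rest on few reads. The gap between the Itgax ranges is smaller than 1 read.

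The cluster genes Mmp1a and Mmp1b were, like Mmp3, at a lower level in Ad-GFP than in siControl. In siControl Mmp1a was at 4.22 ± 0.255 CPM and after knockdown at 8.72 ± 0.859 CPM, and the adenoviral groups had 0.528 ± 0.115 (Ad-GFP) and 4.61 ± 0.236 CPM (Ad-TEADi). It rose by 0.89 with knockdown (adjusted p = 5.35e-08) and by 1.88 with TEADi (adjusted p = 1.19e-12), and its log2 change in Ad-GFP against siControl was -1.77 (adjusted p = 4.3e-11, limma). Mmp1b was at 10.4 ± 0.853, 13.4 ± 1.05, 3.88 ± 0.319 and 10.1 ± 0.644 CPM in siControl, knockdown, Ad-GFP and TEADi cells. It rose by 0.34 with knockdown (adjusted p = 0.00101, and 0.0698 with column totals) and more with TEADi (adjusted p = 1.85e-10), with -1.22 between the controls (adjusted p = 9.93e-10). Both had a lower knockdown than TEADi effect in the test of the difference, with -0.98 for Mmp1a (adjusted p = 5.34e-06) and -0.84 for Mmp1b (adjusted p = 7.78e-06), while Mmp12 did not pass (0.16, adjusted p = 0.356), though it did with a pseudocount of 5 CPM (0.28, adjusted p = 0.00496). Mmp1b overlaps the end of Mmp12 on the other strand, and whether reads were counted by strand is not given. Mmp1b also shares 19.7% of its 50-base stretches with other genes, mostly Mmp1a, so its own level is uncertain. Mmp12 shares 2.53%, mostly with Mmp1b, so part of its reads could be misplaced too. Mmp27, of little known function, rose by 0.64 (adjusted p = 4.72e-05) and 0.84 (adjusted p = 2.38e-06), at 1.27 CPM or less in each group mean.

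Beyond the cluster on the side of Yap1 the pattern was not kept by every gene. Tmem123, the first gene there, rose in both comparisons (0.63, adjusted p = 2.87e-10, and 0.29, adjusted p = 2.48e-05, limma). The apoptosis inhibitor genes Birc2 (-0.05, adjusted p = 0.534, and -0.11, adjusted p = 0.152) and Birc3 (0.11, adjusted p = 0.112, and -0.33, adjusted p = 6.74e-05) did not pass with knockdown, and Birc3 fell with TEADi. Yap1, the target of the knockdown, fell with its own siRNA (-1.54, adjusted p = 4.75e-16) and less with TEADi (-0.23, adjusted p = 0.000311).

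**Figure D3:**
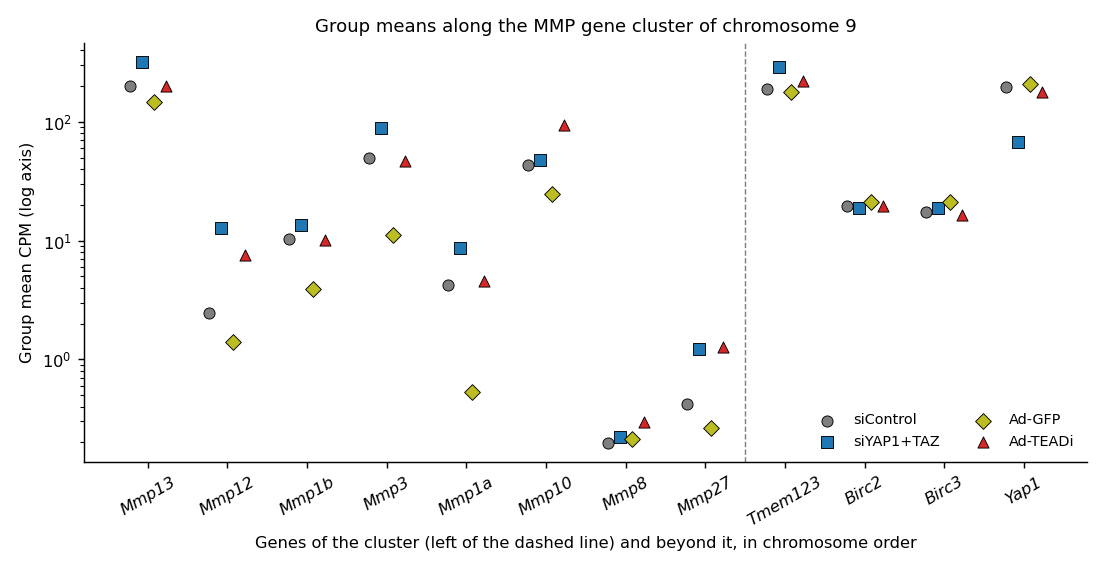
Group mean CPM (vertical axis, log scale) of the genes of the chromosome 9 cluster and of the genes beyond it (right of the dashed line), in chromosome order. From Mmp13 to Mmp27 the siYAP1+TAZ symbol stands above the siControl symbol and the Ad-TEADi symbol above the Ad-GFP symbol, with Mmp10 after knockdown (48.0 against 43.5 CPM) turning direction with column totals and Mmp8 at 0.389 CPM or less and not tested.

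The wider pathway was taken from 9 lists of 84 genes that hold no member, of which 72 were in the table and 58 passed the filter on low values. With knockdown 33 rose and 19 fell (limma on log2(CPM + 1), adjusted p below 0.05 over all genes), where 32.7% of all genes rose and 36.1% fell. With TEADi 22 rose and 23 fell, beside 33.5% and 26.3% of all genes. The median log2 change of the 58 was 0.23 with knockdown and -0.04 with TEADi. With column totals in place of the authors' scaling the counts were 26 and 24 for knockdown and 22 and 28 for TEADi. In both comparisons 20 genes rose and 16 fell, and 5 passed in opposite directions. In the test of the difference itself 31 had the higher value with knockdown and 10 the lower one, against 25.1% and 26.4% of all genes. In Ad-GFP against siControl 18 rose and 16 fell, beside 18.7% and 21.8% of all genes.

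Among the 8 other MMPs tested, 6 rose and 1 fell with knockdown, and 6 rose and 2 fell with TEADi; with column totals the knockdown counts were 5 and 2. Mmp28, epilysin of the epidermis, named like Mmp11 after its values were seen, rose from 8.17 ± 0.360 to 14.8 ± 0.878 CPM (0.78, adjusted p = 1.45e-08) and from 7.26 ± 0.519 to 12.9 ± 0.966 CPM (0.75, adjusted p = 3.96e-08). Mmp15, a membrane-type MMP, rose with TEADi only by its own test (0.67, adjusted p = 2.74e-06), and its knockdown value was -0.03 (adjusted p = 0.795, and 0.0423 with column totals, at -0.21). The test of the difference for Mmp15 gave -0.70 (adjusted p = 0.000161). Its level was 12.4 ± 1.13 CPM in siControl, 12.2 ± 1.61 with knockdown, 7.53 ± 0.341 in Ad-GFP and 12.6 ± 1.20 with TEADi. Ad-GFP was thus the low group, below siControl (adjusted p = 1.12e-05, limma), while the Ad-TEADi and siControl libraries overlapped. Mmp11, stromelysin 3, fell in both (-0.53, adjusted p = 0.000515, and -1.15, adjusted p = 6.17e-08), at 1.65 CPM or less in each group mean.

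The 10 other ADAMTS proteases tested mostly fell, 8 with knockdown and 7 with TEADi, while 2 rose with knockdown and none with TEADi. Adamts1, an aggrecan and versican protease, fell from 20.5 ± 1.29 to 17.7 ± 0.815 CPM with knockdown (-0.20, adjusted p = 0.00391) and from 71.7 ± 3.23 to 50.2 ± 2.64 CPM with TEADi (-0.50, adjusted p = 2.3e-07). Its level was far higher in Ad-GFP than in siControl (log2 change 1.76, adjusted p = 1.5e-13). The other members of this list were at 10 CPM or below in each group mean. Named after their values were seen, Adamts8 fell in both (-0.96, adjusted p = 2.21e-06, and -2.44, adjusted p = 3.85e-12). It went from 1.39 ± 0.427 to 0.225 ± 0.158 CPM with knockdown and from 4.87 ± 0.485 to 0.0815 ± 0.00347 CPM with TEADi. The controls differed, with Ad-GFP above siControl (adjusted p = 1.86e-07, limma), and both treated levels were near the floor. In Ad-TEADi libraries 1 read was worth 0.0389 to 0.0424 CPM by the inferred depth, so that small SD says little about spread. Adamts9 rose with knockdown from 1.71 ± 0.263 to 8.12 ± 0.648 CPM (1.75, adjusted p = 4e-10) and was at -0.29 with TEADi (adjusted p = 0.0633), with a difference of 2.04 (adjusted p = 4.25e-08). The TEADi value of Adamts9 passed with column totals and without Ad-GFP library C or Ad-TEADi library C (adjusted p from 0.00708).

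Both other TIMP genes that could be tested fell together with the member Timp1. Timp2 fell from 34.2 ± 0.794 to 21.0 ± 0.631 CPM with knockdown (-0.68, adjusted p = 7.55e-10) and from 33.0 ± 0.195 to 19.8 ± 1.37 CPM with TEADi (-0.71, adjusted p = 5.8e-10). Timp3, which stays bound to the matrix, fell from 80.1 ± 3.09 to 56.4 ± 0.491 CPM (-0.50, adjusted p = 9.56e-10) and from 130.4 ± 2.29 to 28.5 ± 0.430 CPM (-2.16, adjusted p = 2.14e-18). The difference between these effects passed for Timp3 (1.66, adjusted p = 7.67e-14) and did not for Timp2 (0.03, adjusted p = 0.752). Timp3 was also higher in Ad-GFP than in siControl (0.70, adjusted p = 1.31e-10). The membrane inhibitor gene Reck was set aside as low, and Timp4 and A2m were not in the table.

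Of the 6 tested genes around plasminogen, 4 rose and 2 fell with knockdown (3 and 2 with column totals), and 3 rose and 2 fell with TEADi. Plasminogen itself, Plg, was not in the table. Plat, tissue plasminogen activator, rose from 2.14 ± 0.0974 to 13.5 ± 0.214 CPM with knockdown (2.20, SE 0.0826, adjusted p = 8.36e-15) and from 2.77 ± 0.200 to 5.27 ± 0.479 CPM with TEADi (0.73, adjusted p = 2.37e-07). Plat thus rose where Plau was lower, and the difference between the effects on Plat passed (1.47, adjusted p = 7.47e-09). S100a10, which forms a plasminogen receptor with annexin A2, fell from 1179 ± 45.6 to 387 ± 21.8 CPM (-1.61, adjusted p = 1.27e-16) and from 1277 ± 18.8 to 517 ± 11.4 CPM (-1.30, adjusted p = 3.9e-15). Its partner Anxa2 fell from 3049 ± 91.0 to 1778 ± 98.7 CPM with knockdown (-0.78, adjusted p = 2.53e-11). With TEADi Anxa2 changed by -0.14 (adjusted p = 0.0234), a call that was lost without Ad-GFP library A or Ad-TEADi library C (adjusted p up to 0.0694), and the difference was -0.64 (adjusted p = 3.79e-07).

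Both endocytic receptors of this list rose. Lrp1, the endocytic receptor that clears urokinase complexes, rose from 92.4 ± 3.61 to 256 ± 13.2 CPM with knockdown (1.46, adjusted p = 2.25e-16) and from 83.1 ± 1.96 to 153 ± 1.25 CPM with TEADi (0.87, adjusted p = 7.31e-13). Mrc2, a collagen uptake receptor that binds the urokinase receptor, rose from 12.0 ± 0.551 to 36.5 ± 0.918 CPM (1.53, adjusted p = 2.42e-14) and from 9.35 ± 0.491 to 23.9 ± 1.51 CPM (1.27, adjusted p = 8.91e-13). Macrophages and fibroblasts are also known to make both. The summed macrophage and dendritic markers, mostly Cd68, were higher in the same libraries, while summed fibroblast markers were at 12.6 CPM or less throughout, and the part of such cells was not tested.

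Among the 5 tested serpins of this system 4 rose and 1 fell with knockdown, 2 and 1 with column totals, and 3 rose and 1 fell with TEADi. Serpinb2, or PAI-2, fell from 941 ± 27.9 to 475 ± 22.8 CPM (-0.99, adjusted p = 1.13e-13) and from 1179 ± 14.9 to 530.0 ± 24.5 CPM (-1.15, adjusted p = 2.42e-14). Serpine2, protease nexin 1, rose with knockdown (0.44, adjusted p = 2.91e-06) and was at -0.03 with TEADi (adjusted p = 0.738), and the difference passed (0.47, adjusted p = 0.000186). Serpinb8, an inhibitor of furin, rose from 48.4 ± 0.182 to 115 ± 2.14 CPM (1.24, adjusted p = 7.33e-16) and from 46.2 ± 1.31 to 70.7 ± 1.63 CPM (0.61, adjusted p = 6.03e-11).

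The lysosomal proteases and their inhibitors mostly rose. Of 10 tested cathepsins and cystatins 8 rose and 2 fell with knockdown, and 7 rose and 1 fell with TEADi. The cystatin gene Cstb rose from 110 ± 3.17 to 277 ± 10.6 CPM (1.33, adjusted p = 4.43e-16) and from 96.3 ± 3.76 to 178 ± 1.77 CPM (0.88, adjusted p = 3.06e-13). Cst6, cystatin M of the differentiating epidermis, rose from 54.3 ± 2.26 to 132 ± 11.7 CPM with knockdown (1.26, adjusted p = 2.37e-12) and from 26.4 ± 2.09 to 35.7 ± 3.17 CPM with TEADi (0.42, adjusted p = 2.63e-05), and the difference passed (0.84, adjusted p = 8.75e-07). Ctsc, which activates serine proteases of immune cells, rose by 1.04 with knockdown (adjusted p = 4.6e-11) and 0.49 with TEADi (adjusted p = 3.74e-06), while Ctsl, a keratinocyte cathepsin, fell in both (-0.47, adjusted p = 5.44e-08, and -0.21, adjusted p = 0.000882).

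The sheddases and the remaining lists moved less evenly. Of 7 ADAM genes 4 rose and 2 fell with knockdown (3 and 3 with column totals), and 1 rose and 4 fell with TEADi. Adam12, which cuts growth factor precursors, fell from 128 ± 1.88 to 42.4 ± 2.23 CPM (-1.57, adjusted p = 9.61e-15) and from 156 ± 1.75 to 40.2 ± 4.54 CPM (-1.93, adjusted p = 1.08e-15). Adam15 rose in both (0.72, adjusted p = 4.19e-10, and 0.86, adjusted p = 4.05e-11). The list of the matriptase system, a cascade of membrane serine proteases, also holds the secreted protease gene Hgfac and the inhibitor genes Spint1 and Spint2. With knockdown 3 of its 5 tested genes rose, St14, Prss8 and the inhibitor gene Spint1, and none fell (2 and 1 with column totals). With TEADi 1 rose and 1 fell. Prss8, or prostasin, rose in both (0.65, adjusted p = 1.55e-08, and 0.34, adjusted p = 0.000124). Of the 5 accessory and convertase genes 2 rose and 1 fell with knockdown (1 and 3 with column totals), and 1 rose and 3 fell with TEADi.

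**Figure D4:**
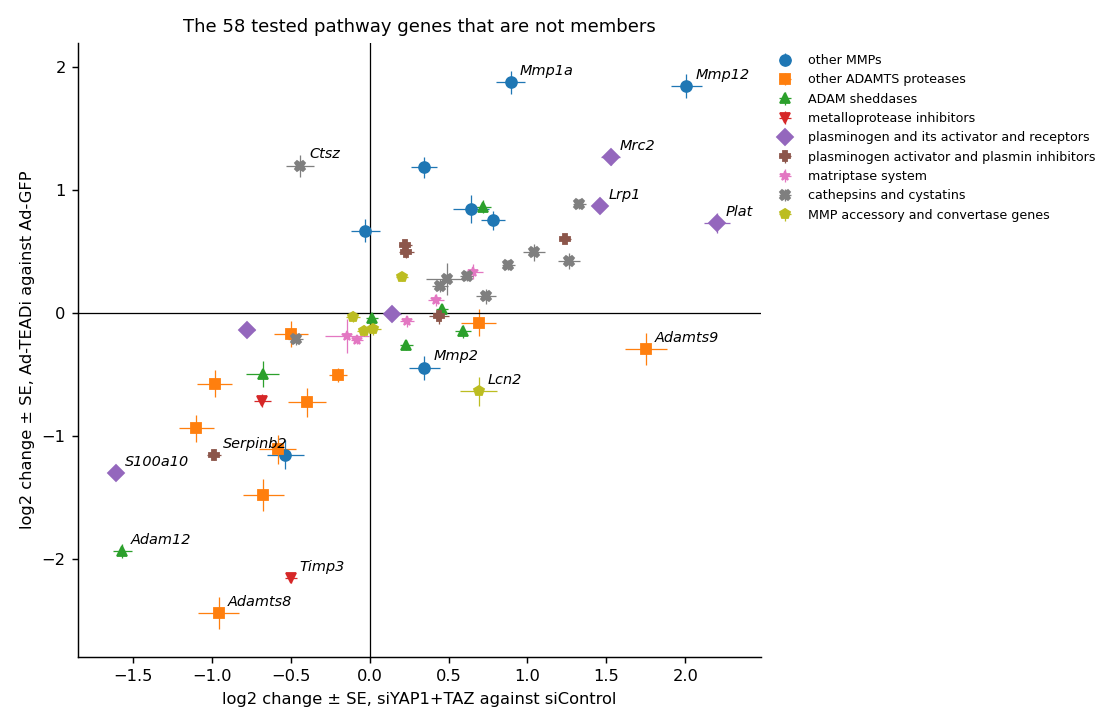
The 58 tested pathway genes outside the member set, by log2(CPM + 1) change with SE after knockdown (horizontal axis) and with TEADi (vertical axis), with symbols by list. Mmp12, Plat, Mrc2 and Lrp1 lie at the upper right, Adam12, S100a10 and Adamts8 at the lower left, Timp3 low at -0.50 and -2.16, and Ctsz alone far into the upper left at -0.44 and 1.20.

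For each member up to 2 genes with the most similar profile over the 12 libraries were taken from 8929 candidates with a mean of at least 10 CPM, by the root mean square difference of centred log2 values. For Adamts15 these were Thbs1, a matrix glycoprotein (0.253), and the adhesion molecule Ncam1 (0.313), against a spread of 1.58 for Adamts15 itself. Ncam1 was at 42.2 CPM with siControl and 6.42 after knockdown, and at 55.2 with Ad-GFP and 5.39 with TEADi. For Mmp3 they were Trib3 (0.3) and the cytokine gene Il33 (0.385), and Trib3 was at 52.4, 82.6, 16.1 and 69.5 CPM in the same order. Mmp10 was nearest to Chac1 (0.24) and Procr (0.248), Mmp13 to Ypel5 (0.0786) and Ppp1cb (0.0799), and Mmp9 to Ska2 (0.139) and S100a4 (0.142). Mmp14 was nearest to Fads1 (0.0683) and Dst (0.0798), and the urokinase gene Plau to Pdia5 (0.051) and Tes (0.0545). Plaur was nearest to Mgll (0.132), and Timp1 to Fto (0.0422) and Ergic1 (0.0531). Genes with a small spread come close to many others by this measure. Among the members themselves, Plau and Timp1 were closest to each other (0.214) and Mmp3 and Adamts15 farthest apart (2.44).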

How the data were processed

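Poly(A) RNA was sequenced in 12 libraries, 4 groups of 3. The authors deposited CPM values with TMM scaling (trimmed mean of M-values) as the file name has it, made with cutadapt 1.18, STAR 2.7.0f and Partek 8.0.19.0819 on mm10, per the submitters' processing notes. How genes were counted, with or without strand, and which genes were left out: not given in the sources used here. The ratio columns of the authors' deposited second table equal the ratio of group mean CPM to within 3.17e-06 on the log2 scale. A whole number of reads, within 0.1, fitted only 82.8% to 85.2% of low values (95% was required), so no count test was run.

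Tests were run on log2(CPM + 1) with limma 3.58.1 (R 4.3.3), all 12 libraries in 1 fit with a mean per group, for 12966 genes that reached 1 CPM in 3 or more libraries (4124 set aside). They were two-sided, adjusted by Benjamini-Hochberg, and checked on simulated data. Fold changes of low genes are understated on this scale. For the difference of effects, groups count as without overlap where the ranges of all possible library differences do not meet. Members and lists were chosen with earlier results of these data known. Named pathway genes are the up to 8 per comparison with the largest change that passed, with a mean of at least 10 CPM and no overlap, plus Serpine2, Serpinb2, Plat, Plg, Timp2, Timp3 and Reck. The text says where others were named after their values were seen, and some genes that this rule names are not reported here. Gene positions were those of GENCODE vM21. Alternatives were column totals, quantile normalization, pseudocounts of 0.1 and 5, no filter, a filter at 5 CPM, only the groups compared, the replicate letter as a block, and each library left out. Intervals are not given, since depth was inferred.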

Additional observations from a re-analysis of the deposited data

Results flagged for a closer look

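For 5 pathway genes outside the member set every treated library lay above its controls in 1 comparison and below them in the other, and the test of the difference itself passed (limma, Benjamini-Hochberg over all genes). They were named after their values were seen. The difference, knockdown minus TEADi on the log2 scale, was 0.79 for the gelatinase gene Mmp2 (0.35 with knockdown and -0.45 with TEADi, adjusted p of the difference 8.32e-05), at 2.95 CPM or less in each group mean. Ctsz, a lysosomal carboxypeptidase, gave -1.64 (-0.44 and 1.20, adjusted p = 4.8e-09). Lcn2, which binds and stabilises the Mmp9 protein, gave 1.33 (0.69 and -0.64, adjusted p = 2.4e-06), at 1.59 CPM or less in each group mean. The sheddase genes Adam9 and Adam10 gave 0.49 (0.23 and -0.26, adjusted p = 1.25e-06) and 0.74 (0.59 and -0.15, adjusted p = 8.88e-08). The knockdown call of Adam9 was lost with column totals (0.04, adjusted p = 0.382) and quantile normalization (0.08, adjusted p = 0.0731). The TEADi call of Adam10 was lost without Ad-GFP library C or Ad-TEADi library A (adjusted p up to 0.105).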

How the results depend on the processing

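Depth limits Adamts15 and Timp1 most, and 3 libraries a group limit all statements. Total counts, higher and lower together, stayed within 1.5 times of the reported ones under every alternative run. This held for calls over all genes and pathway genes and for members without overlap, while the split by direction moved more. With column totals, 2846 of all genes were higher and 7188 lower with knockdown, in place of 4245 and 4687, and 3048 higher and 4764 lower with TEADi, in place of 4339 and 3415. With quantile normalization the knockdown split was 3557 and 5572. Among values that passed in the reported or the alternative setting, or members without overlap, directions turned with knockdown only, in both scalings for Adam8 (-0.18 with column totals and -0.19 with quantile normalization) and Furin (-0.17 and -0.15), with column totals for Mmp10 (-0.05) and Plgrkt (-0.041), and with quantile normalization for Bsg (-0.019). The cause was not tested. Leaving out each library in turn gave 8303 to 8981 genes called with knockdown, 7153 to 7817 with TEADi, 6034 to 6566 for the difference and 4365 to 5321 between the controls. Members without overlap then numbered 9, 8 to 9, 4 to 5 and 7 to 8, and pathway genes called 50 to 52, 43 to 46, 37 to 41 and 28 to 35. The groups share letters, but not every same-lettered pair deviated together (r of -0.01, 0.09 and 0.03 for knockdown, -0.004, 0.15 and 0.16 for TEADi, -0.03, 0.08 and 0.13 between the controls). Libraries B and C correlated best with their own letter for TEADi and between the controls, library A never did, so not every library correlated best with its own letter, and the letter as a replicate block gave 9061 and 7917 genes called and changed no count of members.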
